A study of Mus musculus with 16 samples.

Results

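The liver response to loss of Fatp2 in male mice was described from 8 of the 16 livers of the series, 4 from male Fatp2-/- mice (black629, black638, black650 and black693) and 4 from male control mice (black695, black662, black675 and black655), picked by the sex and genotype in their labels. Fatp2 is the lab name of Slc27a2, which encodes fatty acid transport protein 2. The null allele was carried in every tissue and not only in hepatocytes: a neomycin-resistance cassette takes the place of part of the exons. It had been moved from SV129 stock into C57BL/6 by repeated back-crossing. The controls were C57BL/6 mice from a commercial breeder and are not described as littermates. All 8 mice ate standard chow and were 11 weeks old when the liver was taken. The polyadenylated RNA of a slice of each liver made 1 library. Levels are given in CPM, the count of a gene scaled to the size of its library with TMM factors, in the order black629, black638, black650 and black693 for Fatp2-/- livers and black695, black662, black675 and black655 for control livers. The name FPKM marks the values that are also scaled by gene length.

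FATP2 brings long-chain fatty acids into hepatocytes and couples very-long-chain fatty acids to coenzyme A at the peroxisome and the endoplasmic reticulum. Activated fatty acids are then shortened in peroxisomes, burned in mitochondria, stored as triglyceride in lipid droplets, or oxidized from the omega end by Cyp4a enzymes. PPARalpha, a nuclear receptor that binds fatty acids and pairs with RXR, switches on the genes of most of these steps in the liver.

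Total counts ran from 15546751 to 17872726 in the Fatp2-/- libraries and from 14354302 to 18061619 in the control libraries. The livers carried hepatocyte RNA throughout, with the 10 hepatocyte markers in the table summing to 81316 to 104097 CPM in Fatp2-/- and 98700 to 115699 CPM in control libraries. Among 19 markers of pancreatic acinar cells, black638 and black693 summed to 381 and 213 CPM, against 39.7 to 68.0 CPM in the other 6 libraries. Most of the sum in those 6 was Cela1, at 31.8 to 65.2 CPM. A trace was also present in black650, with 24 counts of Ctrb1 and 23 of Pnlip. In black629 and the controls these had 0 to 10 and 0 to 1 counts. Among 16 markers of skeletal muscle, black693 summed to 4870 CPM and every other library to between 7.75 and 15.6 CPM. Stellate cell and fibroblast markers also summed highest in black693, at 576 CPM against 223 to 317 CPM. Of that sum 225 CPM came from Des, which stood at 4.56 to 11.7 CPM in the other libraries. Col1a1, Col1a2, Col3a1 and Lum were also highest in black693, while the rest of these markers lay within the range of the other libraries. The first 2 principal components of log2 CPM held 27.9% and 22.2% of the variance. The Fatp2-/- livers lay at 18.01 to 26.8 on the first and the controls at -33.6 to -13.9, while black693 stood alone on the second, at -44.3. In RNA of a liver slice with all its cells, fewer cells of a type and less RNA per cell cannot be told apart. Results are therefore given with all 8 mice and again without black638 and black693, and the part of the foreign RNA in any single gene was not tested beyond that.

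The targeted gene was low in every Fatp2-/- liver. Slc27a2 stood at 105, 100.4, 115 and 103 CPM in the 4 Fatp2-/- livers and at 871, 841, 794 and 863 CPM in the 4 controls, so that the groups were far apart and each was tight. This was a 7.95-fold difference (log2 fold change -2.99, S.E. 0.09, edgeR adjusted p = 2.7e-08). The gene is on chromosome 2 from 133905059 to 133941968 in the C57BL/6NJ coordinates of the deposited table, and reads over exons that the null allele keeps are part of its count.

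Per length, FATP2 was the second most abundant transcript of its family in control liver. Slc27a5, which encodes the bile acid CoA ligase FATP5, had a mean of 1078 FPKM in controls, Slc27a2 581 FPKM, Slc27a4 25.1 FPKM and Slc27a1 3.83 FPKM, with Slc27a3 at 1.49 and Slc27a6 at 0.124 FPKM. In Fatp2-/- livers Slc27a2 averaged 72.7 FPKM. Slc27a1, the FATP of muscle and fat, was the family member that rose: its level was 55.8, 39.1, 50.5 and 49.1 CPM in Fatp2-/- and 12.7, 15.7, 11.2 and 11.3 CPM in control livers, 3.82-fold higher (log2 fold change 1.93, S.E. 0.15, edgeR adjusted p = 5.6e-05). In FPKM that took it from a mean of 3.83 ± 0.64 to 14.5 ± 1.86 (S.D., n = 4), which is still below the level of Slc27a4 and far below that of Slc27a5. Slc27a5 was at 1152 FPKM in Fatp2-/- livers and Slc27a4 at 32.7 FPKM, and neither passed the test.

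Across the transcriptome few genes passed the adjusted threshold, and most of those were higher in Fatp2-/- livers. Many more, 2122 genes, had an unadjusted edgeR p under 0.05. Of 13111 genes tested with edgeR, 319 (2.43%) passed an adjusted p of 0.05, 224 of them higher (1.71%) and 95 lower (0.725%) in Fatp2-/- livers. An increase was also larger than a decrease, with a median log2 fold change of 0.82 among the genes that rose and -0.63 among those that fell, while the median of all genes tested was -0.0011. A log2 fold change of 1 or more was reached by 84 of the genes that rose and 24 of those that fell, and one of 3 or more by 15 and 4. The 4 Fatp2-/- values lay entirely above the 4 control values in 770 genes (5.87%) and entirely below in 634 (4.84%), and among the genes called this held for 221 of 224 and 95 of 95. The volcano plot shows the same asymmetry, with the fatty acid genes at its upper right. The counts depended on which mice were used: they fell to 127 higher and 31 lower without black638, 129 and 39 without black650, 135 and 52 without black662, 122 and 38 without black675 and 151 and 53 without black629, and ranged from 171 to 242 higher and 68 to 93 lower without black693, black695 or black655.

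**Figure D1:**
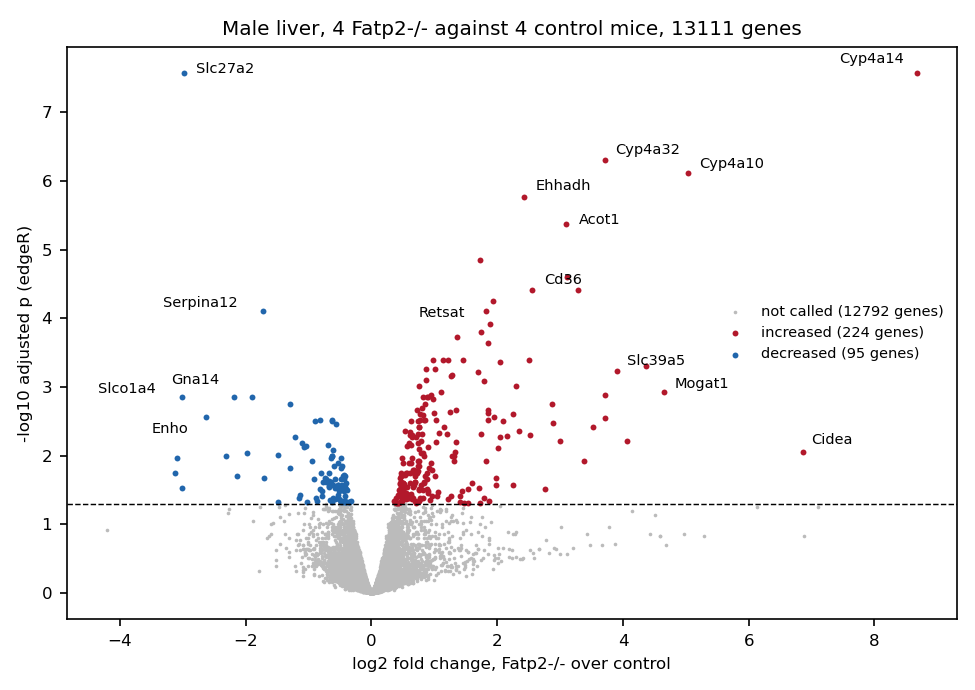
Each point is 1 of the 13111 genes tested in male liver, plotted by its log2 fold change of Fatp2-/- over control (horizontal axis) and the -log10 of its edgeR adjusted p (vertical axis), with the dashed line at an adjusted p of 0.05. The 224 genes that rose are red and reach a log2 fold change of 8.67 (Cyp4a14), and the 95 that fell are blue and reach -3.13.

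Leaving out black638 and black693, the libraries with the most pancreas or muscle RNA, left 205 of 13494 genes called (1.52%), 167 higher (1.24%) and 38 lower (0.282%). All 319 genes kept their direction. In 221 of the 224 increases and all 95 decreases the groups did not overlap, so leaving out mice could hardly turn it. The fold change moved by more than 1.5 times in 1 of the genes that rose and 3 of those that fell. Both fits share the controls and 2 Fatp2-/- livers, so their fold changes are not independent. With 2 Fatp2-/- mice left, 144 of the 224 increases (64.3%) and 22 of the 95 decreases (23.2%) still passed. A further 21 genes were called higher and 16 lower only without them. Among the latter was Lrtm1, at 2.88, 3.17, 3.72 and 13.1 CPM in Fatp2-/- and 17.9, 18.2, 24.8 and 17.9 CPM in control livers, where black693 alone approached the controls (adjusted p = 0.056 with all mice and 2.2e-04 without the pair). Tpm2, a tropomyosin of muscle, had 18.3, 11.7, 19.1 and 286 CPM in Fatp2-/- livers against 6.02, 2.74, 4.88 and 5.17 CPM in controls. Here black693 stood far above the other Fatp2-/- livers, which also exceeded every control. The log2 fold change of Tpm2 went from 4.15 to 1.99 without the pair. In 124 of the 224 genes that rose, black693 was the Fatp2-/- liver nearest to the controls, against 50 for black638, 31 for black650 and 19 for black629. Each gene below is called with all 8 mice unless said otherwise.

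**Figure D2:**
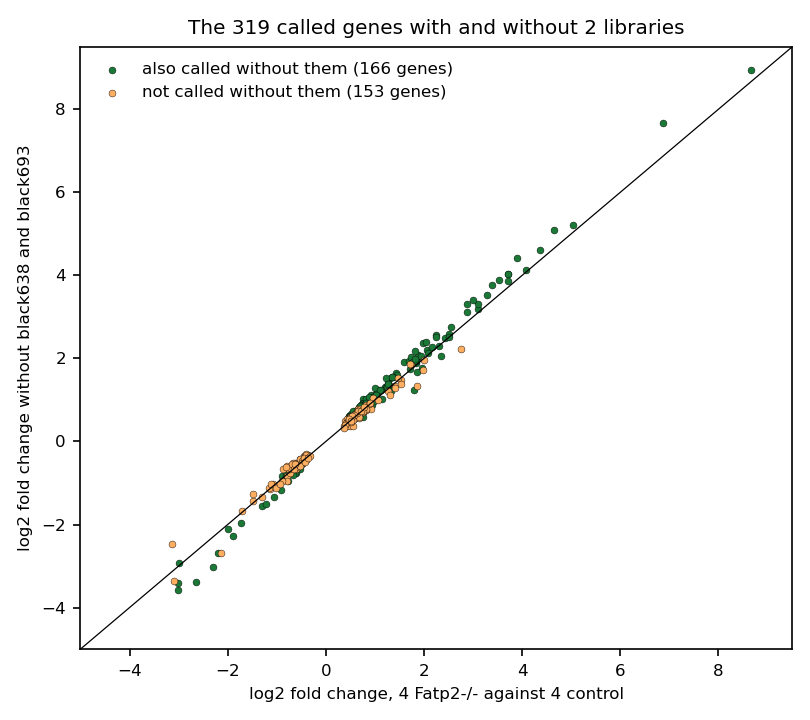
Log2 fold change of the 319 called genes with all 8 mice (horizontal axis) against the value without black638 and black693 (vertical axis), with the diagonal drawn as a line. The points stay close to the diagonal in both directions, green for the 166 genes still called and orange for the 153 that were not. Both axes share the controls and the other Fatp2-/- livers, so they are not independent.

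Of 24 genes for bringing fatty acids into the cell and activating them, 9 rose (37.5%, against 1.71% of all genes tested) and none fell (0.725%), and the median log2 fold change was 0.42. Without the pair 7 were called higher, against 1.24% of all genes. These background shares apply to the counts of every list below. Cd36, a scavenger receptor that takes up long-chain fatty acids, stood at 99.8, 68.5, 135 and 107 CPM in Fatp2-/- livers and 15.9, 16.6, 18.6 and 18.8 CPM in controls. All 4 Fatp2-/- livers lay far above every control, and the difference was 5.87-fold (log2 fold change 2.55, S.E. 0.18, edgeR adjusted p = 3.9e-05). Acsl1, the main long-chain acyl-CoA synthetase of liver, had 1661, 1835, 1662 and 1496 CPM against 797, 876, 717 and 992 CPM, again with no overlap (log2 fold change 0.98, S.E. 0.12, edgeR adjusted p = 0.0015). Acss2, which activates acetate in the cytosol, had a log2 fold change of 0.81 (adjusted p = 0.0049), and Acsl5, an acyl-CoA synthetase of mitochondria and endoplasmic reticulum, one of 0.48 (adjusted p = 0.025). Cd36, Acsl1 and Acss2 were called whichever mouse was left out, whereas Acsl5 was not called without black638, black650, black662 or black675 (adjusted p 0.069 to 0.087). Without black650 or black675 the list had 4 calls in place of 9, without black629, black638 or black662 it had 5.

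The largest fold change of all was in omega-oxidation, the pathway that hydroxylates fatty acids at the far end of the chain. Cyp4a14, a fatty acid omega-hydroxylase, was close to absent in control livers, at 2.91, 2.8, 4.88 and 4.07 CPM, and stood at 1834, 1204, 1783 and 1161 CPM in Fatp2-/- livers. That is a 407-fold difference (log2 fold change 8.67, S.E. 0.27, edgeR adjusted p = 2.7e-08). Cyp4a10 stood at 341, 324, 400.1 and 252 CPM against 7.03, 8.47, 10.4 and 14 CPM (log2 fold change 5.04, S.E. 0.23, edgeR adjusted p = 7.6e-07), and Cyp4a32 at 159.7, 138, 157 and 121 CPM against 7.98, 12.2, 11.2 and 12.4 CPM (log2 fold change 3.72, S.E. 0.16, edgeR adjusted p = 5.0e-07). In these 3 genes black693 was the lowest Fatp2-/- liver, yet it too was far above the highest control. Aldh3a2, the fatty aldehyde dehydrogenase of a later step, rose 3.35-fold, from 219, 225, 205 and 208 CPM to 747, 758, 867 and 500.5 CPM (log2 fold change 1.75, S.E. 0.15, edgeR adjusted p = 1.6e-04). Cyp4f17 rose less, by 0.75 on the log2 scale (adjusted p = 0.014). Of the 15 genes of the pathway tested, 5 rose (33.3%), and the count of 5 stayed the same whichever mouse was left out and without the pair. Adh4, an alcohol dehydrogenase that acts on omega-hydroxy fatty acids and retinol, fell by 0.50 on the log2 scale (adjusted p = 0.044) and was not called without the pair (0.19). The Cyp4a genes are close copies of each other, and the counting could have split or shared their reads.

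Peroxisomal beta-oxidation, which shortens very-long-chain and branched fatty acids, held further large increases. Ehhadh, the bifunctional enzyme of the middle steps, stood at 1108, 1175, 1196 and 882 CPM in Fatp2-/- livers and 188, 209.6, 192 and 225 CPM in controls, 5.35-fold more (log2 fold change 2.42, S.E. 0.12, edgeR adjusted p = 1.7e-06). Acaa1b, the thiolase that closes the cycle, had 4146, 3659, 4103 and 2755 CPM against 1139, 1041, 905 and 1062 CPM (log2 fold change 1.82, S.E. 0.14, edgeR adjusted p = 7.9e-05). In both the 4 Fatp2-/- livers exceeded the 4 controls with a wide gap. Crat, which turns the products into carnitine esters for export, rose 3.31-fold, with 110.0, 118, 123 and 108 CPM against 37.3, 39.8, 30.8 and 30.9 CPM (log2 fold change 1.72, S.E. 0.11, edgeR adjusted p = 1.4e-05). Smaller increases were those of Eci2, an enoyl-CoA isomerase (1.01 on the log2 scale), Ech1, a dienoyl-CoA isomerase (0.87), and Hsd17b4, the D-bifunctional protein for branched chains (0.60). In all, 11 of 28 genes (39.3%) rose and none fell, with a median log2 fold change of 0.33, and 9 to 13 were called when 1 mouse was left out and 10 without the pair. Catalase (Cat), which clears hydrogen peroxide in peroxisomes, was at 3742, 3294, 3439.5 and 3249 CPM in Fatp2-/- and 3409, 3256, 3259.9 and 3311 CPM in control livers, and did not pass the test (log2 fold change 0.05, edgeR adjusted p = 0.83).

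Genes that build peroxisomes held 4 increases. Pex11a, which elongates and divides peroxisomes, rose 2.74-fold, from 59.5, 56, 69 and 58.1 CPM to 159.8, 172, 206 and 127 CPM (log2 fold change 1.45, S.E. 0.14, edgeR adjusted p = 4.0e-04). Pex16 and Pex19, which insert membrane proteins, rose by 0.58 and 0.47 on the log2 scale (adjusted p = 0.037 and 0.025), and Pxmp4, a membrane protein, by 0.68 (adjusted p = 0.027). The import receptors Pex5 and Pex7 had log2 fold changes of 0.24 and -0.14 and did not pass (adjusted p = 0.25 and 0.57). Thus 4 of 25 genes (16%) rose, with a median log2 fold change of 0.10. The count was 2 without the pair, 1 without black629, black638, black662 or black675 and 2 without black650, and Pex11a was called in each of these cases.

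In mitochondria the increases were small in size. Of 25 beta-oxidation genes tested, 24 had a log2 fold change above 0, 10 rose (40%) and none fell, with a median of 0.48. Slc25a20, the carnitine-acylcarnitine carrier of the inner membrane, stood at 182, 173, 183 and 146 CPM in Fatp2-/- livers and 91.8, 90.6, 91.7 and 113 CPM in controls (log2 fold change 0.82, S.E. 0.11, edgeR adjusted p = 0.0026). Cpt2, which frees the acyl-CoA behind that carrier, had 237, 225, 207 and 205 CPM against 133, 152, 142 and 141 CPM (log2 fold change 0.62, S.E. 0.09, edgeR adjusted p = 0.0031). Eci1, an enoyl-CoA isomerase, had 292, 248, 279 and 245 CPM against 145, 144, 141 and 155 CPM (log2 fold change 0.86, S.E. 0.09, edgeR adjusted p = 5.4e-04), and Decr1, a dienoyl-CoA reductase, 253, 229.7, 264 and 242 CPM against 154, 139, 141 and 154 CPM (log2 fold change 0.75, S.E. 0.08, edgeR adjusted p = 9.7e-04). None of these groups overlapped. Hsdl2, a dehydrogenase-like protein, rose by 0.85 on the log2 scale. Acadm, the medium-chain acyl-CoA dehydrogenase, and Hadha, a subunit of the trifunctional protein, rose by 0.50 and 0.51 (adjusted p = 0.025 and 0.019). Cpt1a, the rate-limiting entry step, overlapped between groups, with 253, 299, 348 and 237 CPM against 189, 258, 211 and 342 CPM (log2 fold change 0.18, edgeR adjusted p = 0.67). The list had 9 calls without the pair, 5 without black650 or black675, and 6 without black629 or black695. Slc25a20, Cpt2, Eci1, Decr1 and Hsdl2 were called whichever mouse was left out.

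Ketone body genes, which use the acetyl-CoA from this pathway, showed 1 increase among 9 tested, a count that was 0 without black629, black650, black662 or black675, 2 without black655 and 1 without the pair, with a median log2 fold change of 0.30. Bdh1, which reduces acetoacetate, had a log2 fold change of 0.08 (adjusted p = 0.72). Respiratory chain genes were close to the control level, with 1 of 41 higher, the mitochondrial carrier Ucp2, at 104, 70, 96 and 83.5 CPM against 33.6, 34.7, 33.5 and 34.8 CPM (log2 fold change 1.37, S.E. 0.12, edgeR adjusted p = 1.9e-04). Ucp2 was called whichever mouse was left out, and the median of the list was 0.10.

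Acyl-CoA thioesterases, which release free fatty acids from coenzyme A, held 3 increases among 12 genes (25%), with a median log2 fold change of 0.42. Acot1, the cytosolic enzyme for long chains, stood at 119, 103, 113 and 68.8 CPM against 11.8, 10.5, 11.8 and 13 CPM, 8.57-fold more (log2 fold change 3.10, S.E. 0.17, edgeR adjusted p = 4.2e-06). Acot3, a peroxisomal enzyme, had 5.9, 3.95, 5.22 and 1.66 CPM against 0.38, 0.912, 0.279 and 0.495 CPM (log2 fold change 2.99, S.E. 0.46, edgeR adjusted p = 0.0062), and Acot8, also peroxisomal, 30.5, 26.9, 28 and 22.8 CPM against 15.6, 15.1, 14.6 and 14.4 CPM (log2 fold change 0.86, S.E. 0.11, edgeR adjusted p = 0.0018). All 3 were called without the pair and whichever mouse was left out. Acot1 and Acot3 belong to a cluster of close copies that may share reads, while Acot1 is on chromosome 12 and Acot8 on chromosome 2.

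Taken as 1 list, 49 genes known as targets of PPARalpha, of which 42 stand in other lists here, held 34 increases (69.4%) and no decrease, with 48 of 49 log2 fold changes above 0 and a median of 1.01. The count was 33 without the pair and 31 to 38 when 1 mouse was left out. Vnn1, the pantetheinase that is a standard PPARalpha reporter, stood at 78.3, 68.4, 111 and 62.6 CPM in Fatp2-/- and 10.5, 5.6, 6.83 and 9.63 CPM in control livers (log2 fold change 3.29, S.E. 0.24, edgeR adjusted p = 3.9e-05). Over the 34 genes, the median log2 ratio to the control mean was 1.34 in black629, 1.41 in black638, 1.85 in black650 and 1.07 in black693, and -0.08 to 0.12 in the controls. The 34 were picked as called higher in these same mice, without the 15 targets not called. The gap between the groups in this median follows from that choice, and only the order among the Fatp2-/- livers is described. By this median black650 was the highest and black693 the lowest. Gene by gene, black629 was the highest of its group in 17 of the 34, black650 in 16 and black638 in 1, while black693 was the lowest in 24, black638 in 9 and black629 in 1. Ppara itself overlapped between groups, with 76.6, 118, 117 and 71.8 CPM against 55.3, 104, 87.4 and 104 CPM (log2 fold change 0.13, edgeR adjusted p = 0.83). Pparg, the receptor of fat storage, rose from 7.73, 7.43, 6.62 and 8.97 CPM to 11.6, 12.3, 13.4 and 10.5 CPM (log2 fold change 0.64, S.E. 0.14, edgeR adjusted p = 0.036), and was called with 1 mouse left out only when that was black693 or black655 (adjusted p 0.078 to 0.12 in the others). Creb3l3, the liver transcription factor CREBH, rose by 0.46 on the log2 scale (adjusted p = 0.039, 0.085 without the pair). Fgf21, a hormone that PPARalpha and CREBH induce in fasting, had 5.63, 5.89, 8.16 and 0.949 CPM against 2.09, 3.39, 3.7 and 2.75 CPM and did not pass (adjusted p = 0.45, 0.062 without the pair).

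**Figure D3:**
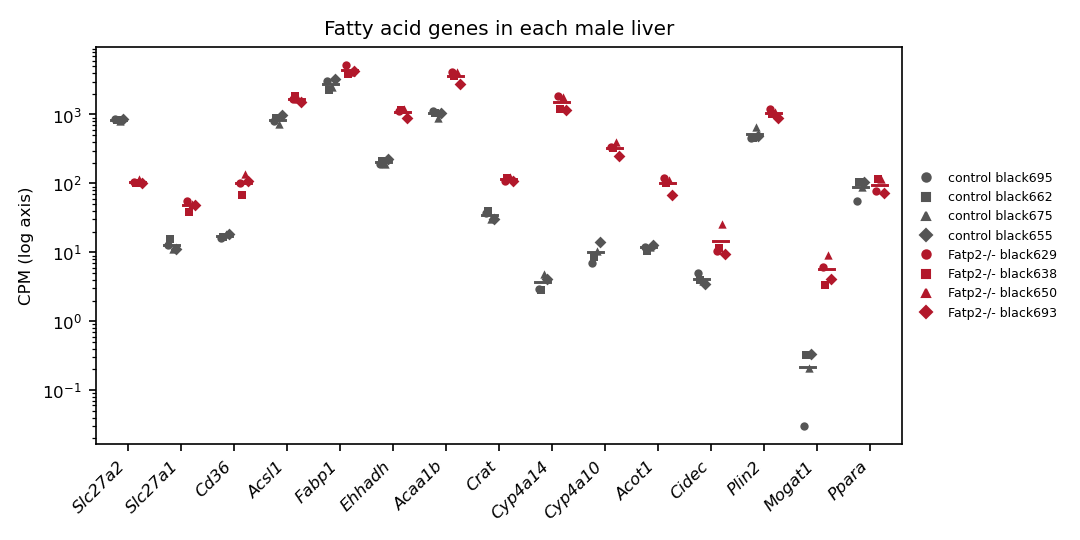
CPM (log axis) of 15 genes of fatty acid handling in each of the 8 male livers, controls in gray and Fatp2-/- in red, with 1 symbol a mouse and a bar at each group mean. The control without a Mogat1 read is drawn at the foot of the axis in place of 0. Slc27a2 is lower in all 4 Fatp2-/- livers, Ppara overlaps, and the other genes are higher in all 4, from Fabp1 (1.58-fold) to Cyp4a14 (407-fold).

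Fabp1, the abundant fatty acid binding protein that carries ligands to PPARalpha, stood at 5215, 3919, 4071 and 4320.0 CPM in Fatp2-/- livers and 3089, 2246, 2499 and 3288 CPM in controls, 1.58-fold more with no overlap (log2 fold change 0.66, S.E. 0.15, edgeR adjusted p = 0.042). It was called with 1 mouse left out only when that was black655 (adjusted p 0.052 to 0.14 in the others), and without the pair its adjusted p was 0.072. PPARalpha with RXR binds a direct repeat of the motif AGGNCA with 1 base between the copies. The 250 bases before the start of each gene in RefSeq (GRCm38.p6) were searched on both strands for this exact pattern, in which the copies do not overlap and N is any base. Of the genes that rose, 173 had a promoter in the table and 1 of them held the pattern (0.578%). It was held by 108 of all 27025 genes (0.4%) and 33 of the 9203 tested genes that were not called (0.359%). The decreased genes with a promoter numbered 67, of which none held it, and 49 increased and 24 decreased genes had no entry. The 1 increased gene was Fabp1, whose promoter lies on chromosome 6 from 71199629 to 71199878 on the plus strand. It is shown because it is the only promoter of an increased gene with the repeat, in capitals, 67 to 55 bases before the start and on the minus strand:

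Fabp1 promoter: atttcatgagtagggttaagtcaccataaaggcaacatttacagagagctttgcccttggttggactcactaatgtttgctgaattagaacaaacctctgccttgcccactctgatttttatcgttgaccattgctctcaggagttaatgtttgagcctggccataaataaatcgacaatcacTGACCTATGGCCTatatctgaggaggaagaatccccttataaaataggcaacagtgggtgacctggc

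The share of increased genes with the pattern was thus close to that of all genes.

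Of 24 lipid droplet and lipolysis genes, 11 rose (45.8%) and none fell, with a median log2 fold change of 0.68. Plin2, the main coat protein of hepatocyte droplets, stood at 1187, 1024, 1104 and 889 CPM in Fatp2-/- and 461, 456, 656 and 492 CPM in control livers (log2 fold change 1.03, S.E. 0.14, edgeR adjusted p = 0.003), and Plin5, the coat protein that ties droplets to mitochondria, at 91.9, 86.8, 83.5 and 77.5 CPM against 52.5, 41.2, 48.6 and 41.3 CPM (log2 fold change 0.89, S.E. 0.11, edgeR adjusted p = 0.0014). Fitm1 and Fitm2, which partition triglyceride into droplets, also rose. Fitm1 had 175, 115, 170.1 and 101 CPM against 57.5, 48, 38.2 and 24.9 CPM (log2 fold change 1.74, S.E. 0.25, edgeR adjusted p = 0.0048) and Fitm2 64.4, 79.1, 82.3 and 65.9 CPM against 41.8, 39.5, 35.7 and 40.2 CPM (log2 fold change 0.89, S.E. 0.11, edgeR adjusted p = 0.0014). Hsd17b11, a droplet-bound dehydrogenase, rose by 0.98 on the log2 scale. The droplet fusion proteins were rare in controls and uneven in Fatp2-/- livers. Cidea had 13.3, 6.89, 47.4 and 2.31 CPM against 0.19, 0.326, 0.0697 and 0 CPM (log2 fold change 6.86, S.E. 1.12, edgeR adjusted p = 0.0088), so that black650 was far above black693 although both lay above all controls. Cidec had 10.5, 11.4, 26 and 9.61 CPM against 5.01, 3.91, 3.84 and 3.52 CPM (log2 fold change 1.82, S.E. 0.31, edgeR adjusted p = 0.012), again highest in black650, and was not called without black662 (adjusted p = 0.051). Cidea and Cidec are also genes of fat tissue. The 8 markers of fat tissue summed to 3223 to 4058 CPM in Fatp2-/- and 3904 to 5925 CPM in control libraries, nearly all of it from Car3, and of the 3 that were tested 1 rose, Lipe, which is also in the droplet list. Counts of the defining markers were 0, 4, 1 and 45 for Adipoq in the Fatp2-/- and 11, 0, 7 and 0 in the control libraries, and 0, 3, 10 and 75 for Plin1 against 26, 0, 5 and 2. Cfd had 40, 49, 200 and 215 counts against 78, 10, 17 and 1, highest in black650 and black693. The part of fat RNA in the values of Cidea and Cidec was not tested. The list had 8 calls without the pair and 7 to 10 when 1 mouse was left out, the fewest without black662.

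Among 19 triglyceride synthesis genes, 2 rose (10.5%). Mogat1, a monoacylglycerol acyltransferase, was nearly silent in controls, at 0, 0.326, 0.209 and 0.33 CPM, and stood at 6.22, 3.33, 9.2 and 4.15 CPM in Fatp2-/- livers (log2 fold change 4.66, S.E. 0.54, edgeR adjusted p = 0.0012). Agpat9, the glycerol-3-phosphate acyltransferase GPAT3, had 4.19, 3.72, 5.22 and 4.51 CPM against 1.65, 0.912, 1.05 and 1.27 CPM (log2 fold change 1.85, S.E. 0.24, edgeR adjusted p = 0.0024). The main liver enzymes showed no such rise: Gpam had a log2 fold change of 0.33, Dgat1 0.25 and Dgat2 -0.28, with adjusted p of 0.25, 0.33 and 0.19. Dgat2 stood at 619, 640.1, 680.2 and 531 CPM against 711, 770.2, 729 and 783 CPM, below every control. Both calls held whichever mouse was left out, 3 genes were called higher without the pair, and the median of the list was 0.26.

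De novo lipogenesis, the making of fatty acids from acetyl-CoA, held 6 increases among 19 genes (31.6%), with a median of 0.40. Scd1, the stearoyl-CoA desaturase, stood at 15600.0, 23187, 19831 and 14045 CPM against 8138, 9516, 8380.3 and 12837 CPM (log2 fold change 0.90, S.E. 0.19, edgeR adjusted p = 0.035). Fasn, the fatty acid synthase, had 2309.5, 2837, 2940.4 and 1689 CPM against 1449.8, 1427, 1685 and 1416 CPM (log2 fold change 0.71, S.E. 0.16, edgeR adjusted p = 0.049), and Me1, which supplies NADPH, 342, 435, 478 and 339 CPM against 216, 199.7, 208 and 300.0 CPM (log2 fold change 0.79, S.E. 0.16, edgeR adjusted p = 0.027). Acacb, whose product malonyl-CoA restrains mitochondrial entry, had 349.6, 493, 425 and 354 CPM against 169, 172, 251 and 249 CPM (log2 fold change 0.95, S.E. 0.17, edgeR adjusted p = 0.013). No group overlapped in these 4 genes, though in Fasn the nearest livers stood at 1689 and 1685 CPM. With 1 mouse left out, Fasn was called only without black693 (edgeR adjusted p 0.088 to 0.14 in the others). Scd1 was called only without black693 or black655 (edgeR adjusted p 0.057 to 0.12 in the others). Me1 was called only without black629, black693 or black655 (0.075 to 0.1), and Acacb was missed only without black662 (0.051). The controlling factor Srebf1 overlapped between groups, with 1062, 1189, 1275 and 747 CPM against 854, 753, 929 and 705 CPM (adjusted p = 0.25). The calls of this list depended on the mice used: 3 of 19 without the pair, 1 without black662, 2 without black638 or black650, and 3 without black629, black695 or black675. The desaturases Fads1 and Fads2 and the elongase Elovl3 had log2 fold changes of 0.09, 0.51 and 0.32, none of which passed.

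Cholesterol and lipoprotein genes gave few calls. No gene of 25 in cholesterol synthesis was called by edgeR, while 6 had an unadjusted p under 0.05, all higher, and DESeq2 called 1. Of the 25, 18 had a log2 fold change above 0, with a median of 0.21. Of 29 lipoprotein genes 1 rose, Pltp, the phospholipid transfer protein, at 232, 193, 174 and 143 CPM against 50.9, 66.5, 36.3 and 61.6 CPM (log2 fold change 1.78, S.E. 0.20, edgeR adjusted p = 8.2e-04). Apob and Apoa1, the main apolipoproteins, had log2 fold changes of -0.06 and -0.27 (adjusted p = 0.93 and 0.39).

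Bile acid genes that changed were mostly transporters. Abcg5 and Abcg8, which together pump sterols into bile, rose by 0.59 and 0.62 on the log2 scale (adjusted p = 0.042 and 0.039), Abcg2, an efflux pump, by 0.76 (adjusted p = 0.0038), and Abcc3, the basolateral exporter, by 0.75 (adjusted p = 0.012). Slco1a4, an organic anion uptake carrier, fell 8.1-fold, from 18.8, 13, 12.7 and 34.3 CPM to 2.16, 3.5, 1.57 and 2.43 CPM (log2 fold change -3.02, S.E. 0.36, edgeR adjusted p = 0.0014). Another uptake carrier outside the list, Slc22a7 (OAT2), fell from 149.9, 134, 160.4 and 85.2 CPM to 70.4, 59.9, 59.9 and 60.8 CPM (log2 fold change -1.08, S.E. 0.17, edgeR adjusted p = 0.0074, adjusted p = 0.066 without the pair). Cyp7a1, the rate-limiting enzyme of bile acid synthesis, varied widely within both groups, with 19.5, 48.8, 19.5 and 20.4 CPM against 63.2, 37.5, 18.6 and 95.2 CPM, and did not pass (adjusted p = 0.31). Abcb11, the bile salt export pump, had a log2 fold change of 0.02. Akr1c6, a hydroxysteroid dehydrogenase, fell by 0.62 (adjusted p = 0.0084). In all, 4 of 32 genes rose (12.5%) and 2 fell (6.25%), and 3 rose and 1 fell without the pair. The increases numbered 1 without black675 and 2 without black638, black650, black695 or black662, while Abcg2 and Slco1a4 were called whichever mouse was left out.

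Other lipid genes with large changes were few. Retsat, the retinol saturase, rose 3.69-fold, from 138, 183, 170.0 and 211 CPM to 741, 571, 739.7 and 535 CPM (log2 fold change 1.88, S.E. 0.16, edgeR adjusted p = 1.2e-04), and Dhrs4, a retinol dehydrogenase of peroxisomes, by 0.72 on the log2 scale (adjusted p = 0.0022), among 26 retinol genes with 3 increases and 1 decrease, or 2 and 0 without the pair. Gal3st1, which makes sulfatide, stood at 6.68, 6.45, 12.5 and 5.1 CPM against 0.57, 0.13, 0.697 and 0.881 CPM (log2 fold change 3.72, S.E. 0.43, edgeR adjusted p = 0.0013) and was, with Kdsr (0.55), one of 2 increases among 34 sphingolipid genes, of which 1 was left without the pair. Serinc2, a serine incorporator, had 66.6, 35.3, 20.8 and 38.5 CPM against 10.9, 11.5, 6.97 and 6.71 CPM (log2 fold change 2.16, S.E. 0.32, edgeR adjusted p = 0.0051). Lpcat3, which puts polyunsaturated acyl chains into phospholipids, rose by 0.73 and Chkb, a choline kinase, by 0.76, which made 3 of 31 phospholipid genes higher in every fit with 1 mouse left out and without the pair. Of 32 arachidonic acid genes 2 rose and 1 fell, among them Pla2g6, a calcium-independent phospholipase (log2 fold change 0.78, S.E. 0.11, edgeR adjusted p = 0.003), and 1 rose and 0 fell without the pair.

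Outside lipid metabolism the largest increases were scattered over unrelated genes. Slc39a5, a zinc importer, stood at 24.5, 10.4, 21.3 and 7.89 CPM against 1.2, 0.912, 1.46 and 0.715 CPM (log2 fold change 3.90, S.E. 0.41, edgeR adjusted p = 5.9e-04), and it was the only one of 29 zinc and iron genes to be called. Slc16a13, a monocarboxylate transporter, had 10.4, 13.4, 15.5 and 9.55 CPM against 1.39, 1.17, 1.67 and 1.43 CPM (log2 fold change 3.10, S.E. 0.21, edgeR adjusted p = 2.5e-05). The nucleotide sugar transporter family members Slc35f1 and Slc35f2 were low in controls, at 0.444, 0.195, 0 and 0.055 and 0.317, 0.195, 0.139 and 0.055 CPM, and rose to 4.39, 3.95, 1.89 and 1.9 and 3.47, 1.39, 1.89 and 1.6 CPM, with log2 fold changes of 4.07 and 3.52 (adjusted p = 0.0062 and 0.0038). Rufy4, an autophagy protein of immune cells, had 1.64, 1.56, 3.2 and 1.48 CPM against 0.0634, 0.0652, 0.279 and 0.165 CPM (log2 fold change 3.72, S.E. 0.50, edgeR adjusted p = 0.0028), and Chrna2, a nicotinic receptor subunit, 14.5, 18.3, 21.1 and 14.8 CPM against 5.2, 4.3, 3.97 and 5.56 CPM (log2 fold change 1.85, S.E. 0.17, edgeR adjusted p = 2.3e-04). The glutathione transferases Gstm4 and Gstt2 rose by 0.95 and 1.07 on the log2 scale, the only increases among 40 conjugating enzymes. All genes named in this paragraph were called whichever mouse was left out and without the pair.

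Several gene lists gave no call. In amino acid and urea metabolism edgeR called 0 of 53 genes, 1 had an unadjusted p under 0.05 upward and 8 downward, and DESeq2 called 3, all lower; Cps1, the first enzyme of the urea cycle, had a log2 fold change of -0.15. The circadian clock list had 0 of 27 called, 5 at an unadjusted p under 0.05, all lower, and 0 by DESeq2. The cell cycle list had 0 of 32, 4 upward at an unadjusted p under 0.05 and 2 by DESeq2. The interferon list had 0 of 31, with 27 of 31 log2 fold changes below 0, 6 lower at an unadjusted p under 0.05 and 1 by DESeq2, and 3 called lower when black693 was left out. Glucose metabolism held 1 increase, Pfkfb1 (0.51), and 1 decrease, Ugp2 (-0.66), among 32 genes. Pfkfb1 was called with 1 mouse left out only when that was black693 (adjusted p 0.051 to 0.079 in the others) and Ugp2 was called with 1 mouse left out only when that was black693 (adjusted p 0.05 to 0.12 in the others), and neither was called without the pair (adjusted p = 0.11 and 0.17). Pck1 and G6pc, the controlled enzymes of glucose output, varied several-fold within both groups and did not pass (adjusted p = 0.82 and 0.52). Of 28 NRF2 and antioxidant genes 1 rose, Srxn1 (0.40), which was not called in any of the 8 fits with 1 mouse left out (adjusted p 0.074 to 0.14).

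**Figure D4:**
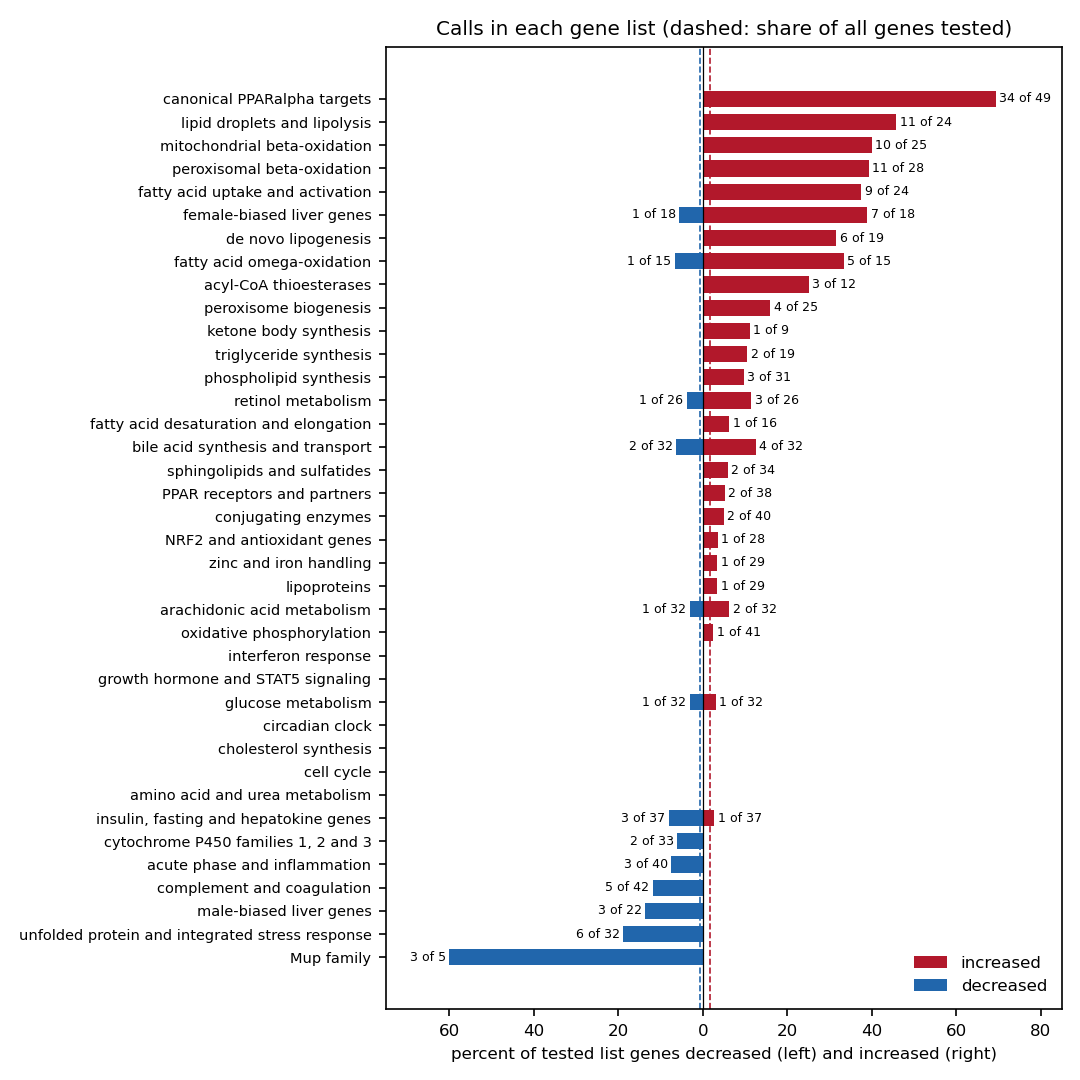
Percent of the tested genes of each list that rose (right, red) or fell (left, blue) in male Fatp2-/- livers, with the counts beside the bars and dashed lines at the shares over all genes tested, 1.71% and 0.725%. PPARalpha targets, droplets and beta-oxidation lead on the right, and the Mup family (3 of 5), the unfolded protein response (6 of 32) and complement (5 of 42) are on the left.

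In the list of the unfolded protein and integrated stress response of the endoplasmic reticulum, 6 of 32 genes fell (18.8%, against 0.725% of all genes tested) and none rose, with a median log2 fold change of -0.23. None of the 32 was called lower without the pair. Pdia4, a disulfide isomerase, stood at 237, 179.5, 192 and 168 CPM in Fatp2-/- and 265, 378, 323 and 279 CPM in control livers (log2 fold change -0.68, S.E. 0.14, edgeR adjusted p = 0.029), and Hsp90b1, the chaperone GRP94, at 353, 296, 329 and 296 CPM against 402, 643, 481 and 439 CPM (log2 fold change -0.63, S.E. 0.14, edgeR adjusted p = 0.047). Manf, a secreted stress factor, had 131, 77.2, 80.6 and 80.1 CPM against 141, 182, 169 and 157 CPM (log2 fold change -0.82, S.E. 0.17, edgeR adjusted p = 0.031). The groups did not overlap in any of them, though the gap between the nearest livers was narrow. Hspa5, the chaperone BiP that leads this response, had 879, 765, 848 and 607 CPM against 1002, 1617, 1403 and 1076 CPM and stopped short of the threshold (log2 fold change -0.72, adjusted p = 0.054). Atf4, the transcription factor of the integrated stress response, was level at 0.00 (adjusted p = 1), and its target Ddit3 (CHOP) had 9.11, 7.56, 7.9 and 8.43 CPM against 15.4, 13.2, 11.6 and 9.52 CPM (adjusted p = 0.081). With 1 mouse left out, none was called lower without black638, black693, black662 or black675 and 1 without black650; the median without the pair was -0.31.

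A further list held the machinery that brings new proteins into the endoplasmic reticulum and folds them. It overlaps the list before, with Pdia4 counted as a decrease in both. This list of 64 genes was drawn up after 4 of its members (Tram1, Spcs3, Fkbp11 and Ero1lb) had been seen among the 15 decreases with the smallest p, so its counts are a description. Of 60 tested, 56 had a log2 fold change below 0, 16 fell and none rose, with a median of -0.29, and 3 of the 16 were called without the pair. Tram1, which helps nascent chains through the translocon, stood at 116, 112, 126 and 109 CPM in Fatp2-/- livers and 165, 189, 183 and 175 CPM in controls (log2 fold change -0.62, S.E. 0.08, edgeR adjusted p = 0.003). Spcs3, a subunit of the signal peptidase, had 61.4, 56, 60.2 and 62.4 CPM against 84, 92.6, 100.3 and 93.6 CPM (log2 fold change -0.63, S.E. 0.09, edgeR adjusted p = 0.0031). Ero1lb, the oxidase that drives disulfide formation, had 38.9, 38.5, 49.3 and 42.1 CPM against 65.8, 91.6, 81.4 and 74.8 CPM (log2 fold change -0.89, S.E. 0.12, edgeR adjusted p = 0.0031), and Fkbp11, a prolyl isomerase of secretory cells, 10.3, 9.84, 8.94 and 9.32 CPM against 18, 16, 15.2 and 18.6 CPM (log2 fold change -0.82, S.E. 0.11, edgeR adjusted p = 0.003). The 2 groups were separate in all 4 genes, and the Fatp2-/- values were close together. These 4 were called whichever mouse was left out, and Spcs3, Ero1lb and Fkbp11 also without the pair.

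By role, the translocon-associated Ssr1 and Ssr3 fell by 0.40 and 0.45 on the log2 scale (adjusted p = 0.025 and 0.048), beside Tram1 among 18 translocation genes tested. In the oligosaccharyltransferase, which attaches N-glycans, 3 of 12 subunits fell, Magt1 (-0.62), Stt3a (-0.44) and Rpn1 (-0.41), and 11 of 12 were below 0. Among 14 genes of disulfide formation and folding all 14 were below 0 and 6 fell, among them Pdia5 (-0.65), Pdia3 (-0.51) and Erp44 (-0.53). In quality control and retrieval 3 of 11 fell, namely Edem2 (-0.53), Vimp (-0.42) and Kdelr2 (-0.41). The sizes are small next to those of the fatty acid genes, all under 1 on the log2 scale. The median was -0.23 without the pair. With 1 mouse left out the count of 16 was 4 without black638, 6 without black675, 8 without black650, black693 or black662, 11 without black629 and 15 without black695 or black655. Of the 16 genes, black638 and black693, the livers with the most acinar RNA, were both below black629 and black650 in 7, both above them in 1 (Rpn1) and neither in 8. The part of acinar RNA in these values was not tested.

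Among plasma proteins secreted by the liver, 5 of 42 complement and coagulation genes fell (11.9%) and none rose, 38 had a log2 fold change below 0, with a median of -0.26. C9, which forms the pore of the membrane attack complex, stood at 295, 325, 348 and 382 CPM against 552, 549, 604 and 477 CPM (log2 fold change -0.69, S.E. 0.11, edgeR adjusted p = 0.007), and C8a, another part of that complex, had 496, 561, 422 and 562 CPM against 709.9, 765, 799.5 and 649 CPM (log2 fold change -0.52, S.E. 0.12, edgeR adjusted p = 0.043). Cfi, the protease that inactivates C3b and C4b, had 421, 435, 395 and 436 CPM against 607, 569, 616 and 567 CPM (log2 fold change -0.48, S.E. 0.08, edgeR adjusted p = 0.011), and Pros1, the anticoagulant protein S, 35.7, 38.2, 40.2 and 40.6 CPM against 52.6, 53, 53.8 and 55.7 CPM (log2 fold change -0.47, S.E. 0.08, edgeR adjusted p = 0.014). C3 overlapped between groups, with a log2 fold change of -0.07 (adjusted p = 0.85). Without the pair 2 genes were called, C8a and C9, and the median was -0.22; the count was 2 without black638 or black675, 3 without black629, black650, black695 or black662 and 5 without black693 or black655.

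Acute phase and inflammation genes had 3 decreases among 40 (7.5%), with a median of -0.35. Tifa, an adaptor of TRAF signaling, fell 3.74-fold, from 10.1, 11.5, 15.8 and 13.6 CPM to 2.88, 4.78, 2.35 and 3.56 CPM (log2 fold change -1.90, S.E. 0.23, edgeR adjusted p = 0.0014). Il6ra, the receptor of interleukin 6, had 20.8, 26.5, 24.8 and 36.2 CPM against 54, 63, 44.5 and 43.1 CPM (log2 fold change -0.92, S.E. 0.18, edgeR adjusted p = 0.022), and Serpina3m, a protease inhibitor, a log2 fold change of -0.61 (adjusted p = 0.041). The acute phase products Fgb and Lcn2 had log2 fold changes of -0.30 and -0.58 and did not pass. Tifa was called whichever mouse was left out. Serpina3m was called with 1 mouse left out only when that was black695 (edgeR adjusted p 0.05 to 0.12 in the others). Il6ra was called with 1 mouse left out only when that was black693, black675 or black655 (adjusted p 0.062 to 0.073 in the others), and it was called without the pair (adjusted p = 0.012).

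Among genes of insulin action, fasting and liver hormones, 3 of 37 fell (8.11%) and 1 rose, Creb3l3, described above, with 3 and 0 without the pair. Serpina12 (vaspin), a serpin that improves insulin action, stood at 53.3, 67, 57 and 82.8 CPM in Fatp2-/- and 212, 202, 236 and 208 CPM in control livers, 3.3-fold lower (log2 fold change -1.72, S.E. 0.14, edgeR adjusted p = 7.9e-05). The adropin gene Enho had 4.39, 9.06, 2.94 and 8.01 CPM against 53.7, 41.2, 21.8 and 36.3 CPM, 6.23-fold lower (log2 fold change -2.64, S.E. 0.35, edgeR adjusted p = 0.0027), with a several-fold spread inside each group but no overlap. Ntrk2, the receptor of brain-derived neurotrophic factor, had 0.393, 0.222, 0.783 and 2.08 CPM against 5.96, 2.28, 10.3 and 9.96 CPM (log2 fold change -3.02, S.E. 0.62, edgeR adjusted p = 0.03), where black693 came close to the lowest control, and it was called with 1 mouse left out only when that was black693 or black662 (adjusted p 0.056 to 0.094 in the others). Serpina12 and Enho were called in each of these fits and without the pair. Igf1 was at -0.19 (adjusted p = 0.39), and Igfbp1, a binding protein that rises in fasting, at 0.71 (adjusted p = 0.23).

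Other decreases with a small p or a large fold change were in genes of varied roles and levels. Gna14, a G protein subunit, stood at 1.57, 2.95, 1.11 and 1.9 CPM against 9.88, 8.14, 9 and 7.81 CPM (log2 fold change -2.19, S.E. 0.26, edgeR adjusted p = 0.0014), and Fam46a, a poly(A) polymerase family member, at 5.7, 7.11, 6.26 and 10.1 CPM against 17.2, 20.4, 14.9 and 15.6 CPM (log2 fold change -1.22, S.E. 0.18, edgeR adjusted p = 0.0053). Sdr9c7, a short-chain dehydrogenase, had 39.2, 46.2, 26.2 and 45.4 CPM against 85.9, 97.4, 99.9 and 104 CPM (log2 fold change -1.30, S.E. 0.16, edgeR adjusted p = 0.0018). Mmd2, at 0.983, 1.5, 0.979 and 0.771 CPM against 2.98, 3.58, 3.56 and 6.77 CPM (log2 fold change -1.99, S.E. 0.33, edgeR adjusted p = 0.0091), and Mkx, a homeobox factor at 0.262, 0.167, 0.0653 and 0.297 CPM against 3.1, 1.04, 1.12 and 1.71 CPM (log2 fold change -3.09, S.E. 0.52, edgeR adjusted p = 0.011), are rare transcripts in which few reads carry the value. Sdc2, a heparan sulfate proteoglycan of the hepatocyte surface, fell from 165, 148, 160.5 and 152 CPM to 111, 101, 107 and 105 CPM (log2 fold change -0.56, S.E. 0.08, edgeR adjusted p = 0.0035). Gna14, Fam46a, Sdr9c7 and Mmd2 were also called without the pair, while Mkx and Sdc2 were not (adjusted p = 0.064 and 0.063).

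**Figure D5:**
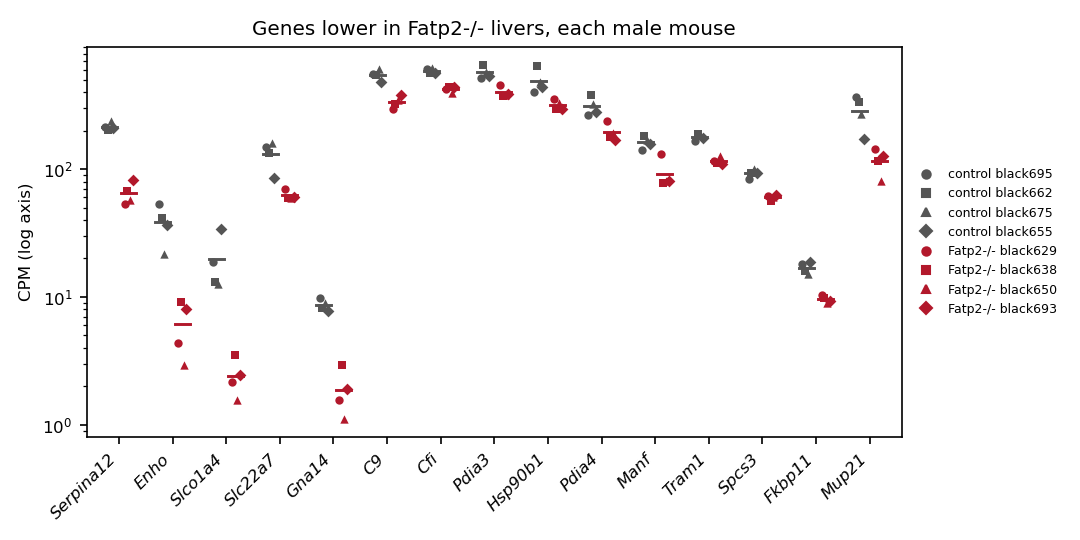
CPM (log axis) of 15 genes that fell in male Fatp2-/- livers, in each of the 8 mice, with controls in gray, Fatp2-/- in red, 1 symbol a mouse and a bar at each group mean. The red and gray points do not overlap in any gene, and the fall is deepest for Slco1a4 (8.1-fold) and Enho (6.23-fold).

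Genes that differ between the sexes in normal mouse liver shifted in part. Of 22 genes known to be higher in males, 3 fell (13.6%) and none rose, with 18 of 22 below 0 and a median of -0.39: Gna14, Cyp2u1, a long-chain fatty acid hydroxylase (log2 fold change -1.11, S.E. 0.17, edgeR adjusted p = 0.0066), and Mup21 (log2 fold change -1.29, S.E. 0.23, edgeR adjusted p = 0.015). Of 18 genes known to be higher in females, 7 rose (38.9%) and 1 fell, with a median of 0.49, but among the 7 are Cyp4a14, Cyp4a10 and Acot3, described above as fatty acid genes. Cyp17a1, a steroid hydroxylase of this list, had 9.04, 17.3, 30.1 and 6.77 CPM against 1.71, 3.39, 3.91 and 4.29 CPM (log2 fold change 2.24, S.E. 0.45, edgeR adjusted p = 0.027). It was called with 1 mouse left out only when that was black629 or black693 (edgeR adjusted p 0.051 to 0.086 in the others). The inhibitory G protein gene Gnai1 stood at 3.6, 5.5, 6.59 and 4.57 CPM against 1.27, 0.847, 1.12 and 0.881 CPM (log2 fold change 2.30, S.E. 0.26, edgeR adjusted p = 9.6e-04), and Nt5e, the ecto-nucleotidase CD73, at 14.8, 15.8, 10.8 and 14.6 CPM against 5.07, 6.52, 6 and 7.54 CPM (log2 fold change 1.15, S.E. 0.16, edgeR adjusted p = 0.0038). Cux2, a transcription factor of female liver, was at 0.393, 1.28, 1.04 and 1.66 CPM and 1.71, 1.24, 0.976 and 0.826 CPM, near absent in both groups. Growth hormone and STAT5 genes, which set this sex pattern, had 0 of 13 calls by edgeR, 1 at an unadjusted p under 0.05 and 0 by DESeq2, and Stat5b was at -0.10 (adjusted p = 0.61). The male list had 2 calls without the pair and 2 to 6 when 1 mouse was left out, the fewest without black638 or black662 and the most without black655. The female list had 5 or 6 increases in each such fit.

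Major urinary proteins, the pheromone carriers made in quantity by male liver, were lower in 3 of 5 genes tested. Mup3 stood at 6303, 4206, 4402 and 5123 CPM against 9399, 7646, 8396 and 7762 CPM (log2 fold change -0.73, S.E. 0.14, edgeR adjusted p = 0.024), Mup21 at 143, 116, 80.8 and 126 CPM against 368, 334, 269.8 and 172 CPM, and Mup4 at 0.262, 0.834, 0.261 and 0.356 CPM against 2.53, 2.41, 2.02 and 1.82 CPM (log2 fold change -2.31, S.E. 0.38, edgeR adjusted p = 0.01). The groups did not overlap in these 3, and Mup4 was called in every fit with 1 mouse left out and without the pair. The count was 1 without black638, black662 or the pair, and 2 without black650, black695 or black675. Mup5 moved the other way in only 2 mice, with 18.8, 2683, 2972 and 28 CPM in Fatp2-/- and 15, 21.8, 21.9 and 22.6 CPM in control livers (adjusted p = 0.055 with all mice, 0.028 without the pair), so that black638 and black650 stood far above black629 and black693. Mup genes are close copies, and their reads may be shared.

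The difference between the male and the female response was tested in 1 fit over all 16 mice. Of 14079 genes, 1 differed (0.0071%), Cyp4a14, while 860 had an unadjusted p under 0.05 and DESeq2 called 31. In female controls Cyp4a14 stood at 82.3, 146, 40.1 and 91.9 CPM and in female Fatp2-/- livers at 2431, 3881, 2108 and 2284 CPM, so that every female value lay above every male value of the same genotype. The log2 fold change was 3.76 larger in males (S.E. 0.46, edgeR adjusted p = 0.0034). It was the 1 gene called in every alternative fit, with 2 genes called without black655.

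Near the targeted gene, 10 of 183 genes within 10 Mb of Slc27a2 were called (5.46%), 4 higher and 6 lower, and 1 without the pair; over all of chromosome 2 the share was 4.02% of 1019 genes. The 3 with the smallest p were Exd1, at 6.68, 12.4, 12.2 and 11.8 CPM against 3.04, 2.02, 2.79 and 3.96 CPM (log2 fold change 1.86, S.E. 0.25, edgeR adjusted p = 0.003), Disp2, a member of the Dispatched family, at 0.917, 0.167, 0.0653 and 0.119 CPM against 2.34, 2.28, 2.86 and 3.58 CPM (log2 fold change -3.13, S.E. 0.57, edgeR adjusted p = 0.018), and Spg11 (log2 fold change -0.68, S.E. 0.14, edgeR adjusted p = 0.028), and the SV129 sequence around the null allele and the loss of FATP2 cannot be told apart in this window.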

How the data were processed

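Polyadenylated liver RNA of 16 mice was sequenced in read pairs, and the 8 male libraries are compared here, grouped by the sex and genotype in their labels; the 8 female libraries enter only the test of the difference between the sexes. Per the submitters' processing notes, the authors mapped reads with TopHat2 2.0.12 and Bowtie2 2.2.3 and counted them with HTSeq 0.6.1, in union mode per the study's methods. They deposited 1 table of raw counts and FPKM per gene with C57BL/6NJ identifiers. Whether counting used strand is not given in the sources used here. The authors' own fold changes and p-values were not used. The table held 41096 genes after 4 rows that name no gene were left out; 10690 had no symbol, and 39 were named from its KEGG column.

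Counts were analyzed in R 4.3.3 with edgeR 4.0.16: filterByExpr (minimum count 10, minimum total 15), TMM factors and the quasi-likelihood test over the 8 male mice, with Benjamini-Hochberg adjustment at 0.05. The S.E. is the absolute log2 fold change over the square root of F. Each mouse is 1 replicate. The sexes were compared as an interaction in 1 fit over 16 mice. FPKM was used for levels between genes only. The steps were tested on simulated data. Alternatives were the fit without black638 and black693, each mouse left out, RLE and upper-quartile factors, no filter, at least 10 counts in every library, DESeq2 1.42.0, limma-voom (limma 3.58.1), all 16 mice in 1 fit and an absolute log2 fold change of 1.5. The counts of each gene list without the pair, and the list of protein entry into the endoplasmic reticulum, were added after seeing the data.

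Genes were named by rule: Slc27a2, Ppara and Nnt; the 15 increases and 15 decreases with the smallest p; the 10 largest of each among separate groups with mean log2 CPM not below 0; of each list the first 3 genes and up to 6 called members; 3 genes within 10 Mb of Slc27a2; and 5 genes called only with, and 5 only without, the pair. The fat markers and Lipe were named after their values were seen. Some genes that the rule names are not reported here. The groups, genes and lists were chosen with earlier results of these data known.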

Additional observations from a re-analysis of the deposited data

Results flagged for a closer look

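Among 324 groups of 4 values (the genes named here in Fatp2-/- and in control livers), 26 held 1 mouse whose distance from the other 3 took up more of the whole range than Dixon's 95% critical value, which chance exceeds in about 1 in 20 groups. The part of foreign RNA, sampling or chance in them was not tested.

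In black693 these were Fads2, at 475 CPM against 643 to 668 CPM in the other Fatp2-/- livers, Ssr1, at 104 against 110.0 to 110.4 CPM, Lrtm1, at 13.1 against 2.88 to 3.72 CPM, Tpm2, at 286 against 11.7 to 19.1 CPM, and Myc, at 33.2 against 6.28 to 9.92 CPM. In black629 they were Gstm4, at 151 against 115 to 119 CPM, Exd1, at 6.68 against 11.8 to 12.4 CPM, Slc22a7, at 70.4 against 59.9 to 60.8 CPM, Cyp4f17, at 40.0 against 31.7 to 31.8 CPM, Disp2, at 0.917 against 0.0653 to 0.167 CPM, Manf, at 131 against 77.2 to 80.6 CPM, and Pdia3, at 459 against 374 to 388 CPM. In black650 they were Rufy4, at 3.20 against 1.48 to 1.64 CPM, Cidec, at 25.97 against 9.61 to 11.4 CPM, and Pex7, at 74.1 against 66.2 to 66.3 CPM. In black638 they were Mup4, at 0.834 against 0.261 to 0.356 CPM, and Cyp7a1, at 48.8 against 19.5 to 20.4 CPM.

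Among the controls, black655 stood apart in Slc25a20, at 113 against 90.6 to 91.8 CPM, Gstt2, at 43.4 against 29.1 to 29.7 CPM, Mmd2, at 6.77 against 2.98 to 3.58 CPM, Me1, at 300.04 against 199.71 to 216 CPM, and Pex7, at 90.0 against 68.5 to 71.2 CPM. The control black675 stood apart in Fasn, at 1685 against 1416 to 1450 CPM, and Lrtm1, at 24.8 against 17.9 to 18.2 CPM, black662 in Hsd17b11, at 142 against 163 to 167 CPM, and black695 in Mup5, at 15.02 against 21.8 to 22.6 CPM.

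The genotype change of Cyp4a14 differed between the sexes by 3.76 on the log2 scale, larger in males, and between 3.43 and 4.03 over 20 alternatives, with an adjusted p of 0.027 at most.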

How the results depend on the processing

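The log2 fold change of Slc27a2 stayed between -3.04 and -2.93 over 16 alternatives, and no gene named here turned its direction with a call in any of them. The 319 calls became 205 without black638 and black693, with 38 lower in place of 95, and 158 to 335 (122 to 242 higher, 31 to 93 lower) when 1 mouse was left out. DESeq2 called 736 genes, 459 higher and 277 lower, and gave no adjusted p for 322. The fit over all 16 mice called 160, 132 higher and 28 lower, and requiring an absolute log2 fold change of 1.5 left 68. RLE factors gave 323, upper-quartile factors 324, no filter 420, at least 10 counts in every library 318 and limma-voom 315. Of 120 called genes named here, 78 stayed called without the pair, 77 to 106 with 1 mouse left out, 65 in the fit over 16 mice and 109 or more under the other settings. The sex difference gave 1 gene throughout except 2 when black655 was left out and 31 with DESeq2. Fewer mice and a spread shared with female livers are part of these settings by construction; other causes were not tested. No paired analysis was possible because the labels give mouse numbers that do not recur between groups. With 4 mice a group, small changes at the threshold depend on single mice, and rare transcripts such as Mkx rest on few reads.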

Other observations

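Some genes outside the lists or short of the threshold differed among the Fatp2-/- livers themselves. Pdk4, the kinase that shuts off pyruvate dehydrogenase in fasting, stood at 17.8, 57.4, 26 and 58.4 CPM in black629, black638, black650 and black693 and at 17.4, 14.3, 16.2 and 10.3 CPM in the controls, so that the high values were in black638 and black693 (log2 fold change 1.46, edgeR adjusted p = 0.058, and 0.60 with adjusted p = 0.26 without that pair). Cdkn1a, the cell cycle inhibitor p21, had 9.63, 18, 12.3 and 18.6 CPM against 8.81, 3.26, 8.09 and 2.97 CPM, again highest in black638 and black693 (adjusted p = 0.085). The clock output genes Nr1d1 and Dbp went the other way in the same pair. Nr1d1 stood at 140.0, 68.2, 157 and 62.4 CPM in Fatp2-/- and 108, 174, 163 and 177 CPM in control livers, and Dbp at 6.35, 2.06, 31.3 and 1.13 CPM and 9, 29.6, 21.2 and 55.7 CPM. Ppard, another PPAR, had 30.7, 81.5, 19.1 and 41.5 CPM against 35.6, 20.7, 33.1 and 11.4 CPM (adjusted p = 0.4). None of these 5 passed the test with all 8 mice, and the part of sampling hour or of foreign RNA in them was not tested.

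Mup5 fell into separate levels in the male Fatp2-/- livers, 18.8 and 28.01 CPM in black629 and black693 against 2683 and 2972 CPM in black638 and black650. The 4 female Fatp2-/- livers stood at 1678, 1273, 2534 and 5003 CPM and the 4 female controls at 5.41, 17.7, 12.1 and 80.2 CPM. The 2 low male livers were thus at the level of the male controls, 15.02 to 22.6 CPM.

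Genes called only without black638 and black693 included Myc, at 8.52, 6.28, 9.92 and 33.2 CPM against 3.8, 4.37, 2.79 and 3.14 CPM, where black693 held the highest value (adjusted p = 0.054 with all mice, 0.013 without the pair). Ugt2b38, a glucuronosyltransferase, had 3.73, 2.83, 2.09 and 8.19 CPM against 8.93, 8.8, 9.69 and 7.48 CPM, with black693 inside the control range (adjusted p = 0.16 and 0.015).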
